A study of Homo sapiens with 74 samples.

Results

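Sharp borders of lamina-associated domains (LADs) are places where contact with the nuclear lamina changes steeply along a chromosome. They were looked for in HEK293T cells, a line of transformed human kidney cells of embryonic origin with the large T antigen of SV40, in a table of 28163 bins of 100 kb on build hg38. For each bin, r was the log2 ratio of the summed library shares of bulk DamV133A-LMNB1 over bulk DamV133A, with 1 count added. Members were chosen by this measured ratio alone: a bin was a member if the mean r of the 3 bins on its left and of the 3 bins on its right differed by 1.5 or more. The rule found 132 member bins among 27831 bins with a complete window. Adjacent members of 1 sign were joined into 78 borders, and the member with the largest difference is called the lead bin. The 300 kb with the higher mean r is called the LAD side, the 300 kb with the lower mean r the iLAD (inter-LAD) side.

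The nuclear lamina is a mesh of lamins under the inner nuclear membrane, and lamin B1 (LMNB1) is one of its structural proteins. LADs are long stretches of chromatin that touch it, and they are known as gene-poor, AT-rich and largely silent. In DamID a bacterial enzyme, Dam, that places methyl groups on the adenine of GATC is fused to LMNB1, so that DNA near the lamina is marked. Methylated fragments are released with DpnI and sequenced, and untethered Dam serves as the control for accessibility.

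All constructs were expressed by transient transfection, and per the labels 1 mM Shield-1, a ligand that stabilises proteins with a destabilised FKBP12 domain, was given for 20 hours before harvest. The 74 samples formed 13 groups. The rule used 4 bulk libraries, 2 with DamV133A-LMNB1 and 2 with DamV133A, a variant of Dam. A separate comparison of Dam variants had 2 libraries each of wild-type Dam, wild-type Dam-LMNB1, DamV133A and DamV133A-LMNB1. Single cells were 15 with DamV133A-LMNB1 and 3 with DamV133A, both with m6A-Tracer, which binds GATC once it is methylated, in batch 1, and 36 with DamV133A-tdTomato-LMNB1 and m6A-Tracer-NES in batch 2. RNA had 2 libraries each of untreated cells and of cells with m6A-Tracer, DamV133A or DamV133A-LMNB1. The labels do not say whether libraries came from separate cultures, so p-values measure the spread between these libraries alone.

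The DNA of 5 promoters at 3 of these borders is printed first, because the genes on either side differed in the CG content of their promoters. Each is the 250 bases before the gene's start (RefSeq, GRCh38.p14), read 5′ to 3′ on the gene's strand, with CG dinucleotides in capitals. Where the start site lies within the lead bin, the genes are NCAPG, a subunit of the condensin I complex (chr4:17810729-17810978, plus strand), ZMAT2, a zinc finger protein of the spliceosome (chr5:140700197-140700446, plus strand), and GABBR1, a subunit of the GABA-B receptor (chr6:29628014-29628263, minus strand). The other 2 lie in the LAD-side flank of the same ZMAT2 and GABBR1 borders and were chosen after their values were seen. They are PCDHA4, a neuronal cell adhesion protein of the protocadherin alpha cluster (chr5:140806818-140807067, plus strand), and OR11A1, an olfactory receptor (chr6:29457072-29457321, minus strand).
NCAPG: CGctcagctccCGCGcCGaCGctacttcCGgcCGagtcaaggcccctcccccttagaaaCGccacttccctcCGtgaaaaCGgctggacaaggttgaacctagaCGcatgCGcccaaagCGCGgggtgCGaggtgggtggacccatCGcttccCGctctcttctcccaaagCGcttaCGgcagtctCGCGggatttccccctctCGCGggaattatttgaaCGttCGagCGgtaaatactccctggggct
ZMAT2: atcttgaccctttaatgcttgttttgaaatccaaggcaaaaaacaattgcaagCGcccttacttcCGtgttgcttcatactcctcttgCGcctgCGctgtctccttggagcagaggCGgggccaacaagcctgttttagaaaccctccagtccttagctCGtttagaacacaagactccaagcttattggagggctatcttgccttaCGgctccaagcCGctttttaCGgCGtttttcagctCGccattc
GABBR1: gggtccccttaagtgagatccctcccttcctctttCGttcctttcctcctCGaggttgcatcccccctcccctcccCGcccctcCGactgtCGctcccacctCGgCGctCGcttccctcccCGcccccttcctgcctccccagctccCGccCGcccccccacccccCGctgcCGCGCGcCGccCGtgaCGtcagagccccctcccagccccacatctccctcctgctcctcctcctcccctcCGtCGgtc
PCDHA4: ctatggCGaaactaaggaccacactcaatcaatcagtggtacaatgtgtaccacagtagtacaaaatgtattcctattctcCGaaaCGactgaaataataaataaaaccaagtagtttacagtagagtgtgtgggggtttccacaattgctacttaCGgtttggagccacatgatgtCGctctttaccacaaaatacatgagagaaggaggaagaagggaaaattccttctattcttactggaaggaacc
OR11A1: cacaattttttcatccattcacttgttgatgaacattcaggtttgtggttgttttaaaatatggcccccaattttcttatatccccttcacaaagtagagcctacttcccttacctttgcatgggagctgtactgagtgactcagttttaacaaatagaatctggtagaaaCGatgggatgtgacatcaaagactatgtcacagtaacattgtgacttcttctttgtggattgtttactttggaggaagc
The lead-bin promoters held 26, 11 and 20 CG, and the LAD-side promoters 5 and 1. Other named genes went against this contrast: the promoter of LCORL, on the LAD side of the NCAPG border, held 23 CG, and that of NNT, in a lead bin on chromosome 5, held 7. Of the 5 printed, the GABBR1 promoter alone held a GATC, the site that Dam methylates, with 1. Over 53 borders described below, the promoters of 87 LAD-side genes held a median of 2 CG, those of 40 lead-bin genes 12.5 and those of 210 iLAD-side genes 18, against 17 for all 15089 placed promoters. At least 10 CG stood in 12.6% of LAD-side, 60.0% of lead-bin and 73.3% of iLAD-side promoters, against 68.9% of all. GATC, which reads the same on both strands, was present in 39.1%, 35.0% and 28.1% of them, against 33.9% of all. Genes were placed by the middle of their span, and neighbours in a cluster share sequence, so these shares are a description.

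The 78 borders fell on 21 chromosomes, 42 running from iLAD to LAD and 36 from LAD to iLAD in chromosome order. Of them 40 were a single bin, 27 were 2 bins, 6 were 3 and 5 were 4 bins long. They were of 2 kinds. At 53 borders with 81 member bins every bin of the 7-bin window had at least 5000 summed bulk DamV133A counts, and these are called well covered. The lowest count in their windows ranged from 10902 to 40947. At the other 25 borders, with 51 member bins, the lowest count in the window was between 0 and 1266, with a median of 18. These are called thinly covered, and 9 of the 10 borders that remained at a threshold of 2 were of this kind. Their flanks and lead bins held few DpnI fragments, with medians of 45.7 per bin on the LAD side, 54 in lead bins and 85.3 on the iLAD side, against 244 over well covered bins. At the steepest, chr14:16400001-16500000, the 3 iLAD-side bins held 0 fragments each and had the same r, -3.41, and at chr22:13000001-13100000 the lead bin and the 3 LAD-side bins held 0 fragments each and had the same r, 3.05. Fragments were placed by their middle. The lowest summed bulk DamV133A count in the window was 184 at the first of these borders and 0 at the second. Results are therefore given for all 78 borders and for the 53 well covered ones, a division made after the counts were seen, on coverage alone.

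The values that chose the borders are given as a description. At well covered lead bins the difference ranged from 1.5 to 2.00 with a median of 1.66 on the log2 scale, and at thinly covered ones it reached 4.54. Over all 26086 bins with well covered windows the median absolute difference was 0.24. On the LAD side the median of the mean r was 0.73, on the iLAD side -0.93, and in the lead bin the median r was 0.04. Taken border by border, the lead bin lay at a median of 49.0% of the way from the iLAD-side to the LAD-side level (10.7% to 99.1%). Both constructs moved across the border in these 4 libraries. The log2 step of the LAD side over the iLAD side had medians of 1.03 and 1.07 in the DamV133A-LMNB1 libraries and of -0.65 and -0.58 in the DamV133A libraries. Just inside the threshold lay chr2:75800001-75900000, chr6:29500001-29600000 and chr3:121300001-121400000, each at 1.5 after rounding. Just outside lay chr14:24500001-24600000, chr9:60900001-61000000, which is thinly covered, and chr6:73800001-73900000, also at 1.5 after rounding.

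Well covered borders were spread unevenly over the chromosomes. Chromosome 2 held 10, chromosomes 4 and 5 held 9 each, and 14 chromosomes held at least 1. Per 100 Mb of well covered windows this was 5.17 on chromosome 5, 4.83 on chromosome 4 and 4.28 on chromosome 2, whereas chromosomes 7, 15, 16, 17, 19, 20, 21 and 22 held none. Between neighbouring well covered borders lay 8 stretches that opened and closed as a LAD. The shortest, chr2:20800001-23000000, was 2.2 Mb long and held 22 bins with a median r of 0.72, none of them below 0. The next were chr4:103200001-107700000, 4.5 Mb with a median r of 1.12, and chr2:208400001-215900000, 7.5 Mb with a median r of 1.20. The longest stretch between an entry and an exit, chr4:17900001-70500000, was 52.6 Mb long, but 157 of its 526 bins had r below 0, so it is not 1 unbroken LAD. The shortest iLAD was chr5:6400001-6800000, 4 bins of 100 kb with a median r of -1.91. The windows of its 2 borders share bins, so these 2 are not independent. At the first of them, chr5:6300001-6400000, the mean r of the LAD side was -0.24. That side is called LAD only because it is the higher one. In the authors' deposited table, 13 of the 159 LAD-side bins of well covered borders carried the mark of control LADs and 0 that of control iLADs. Of the 157 iLAD-side bins 13 carried the mark of control iLADs and 0 that of control LADs. At thinly covered borders 0 of 67 LAD-side bins carried either mark, and 3 of 71 iLAD-side bins that of control iLADs. The share of all bins with each mark was not counted.

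The next question was whether the borders are seen in libraries that did not choose them. The 8 variant libraries held 3162041 to 10666805 counts, on 441781 to 980277 DpnI fragments with at least 1 count. The wild-type Dam-LMNB1 libraries differed most in this respect, with 24.1 and 5.81 counts per covered fragment. In the DamV133A-LMNB1 libraries the LAD side was the higher side at 53 of 53 well covered borders in each, with median log2 steps of 1.64 and 1.81. In the DamV133A libraries the median steps were -0.32 and -0.20, and the LAD side was higher at 17 and 14 borders. Both DamV133A-LMNB1 libraries thus lay above both DamV133A libraries at 53 of 53 well covered borders, and at 57 of all 78, where 43.3% of all 27132 tested bins did so in the direction of the bulk difference. The wild-type Dam-LMNB1 libraries had median steps of 0.91 and 0.99, with the LAD side higher at 49 and 52 borders. In the wild-type Dam libraries the medians were 0.16 and 0.21, with the LAD side higher at 37 and 40. Here the 2 pairs did not overlap at 40 well covered borders and at 44 of all 78, against 27.9% of all tested bins. The plot of steps by library shows both fusions above their controls and the variant fusion above the wild-type one.

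**Figure D1:**
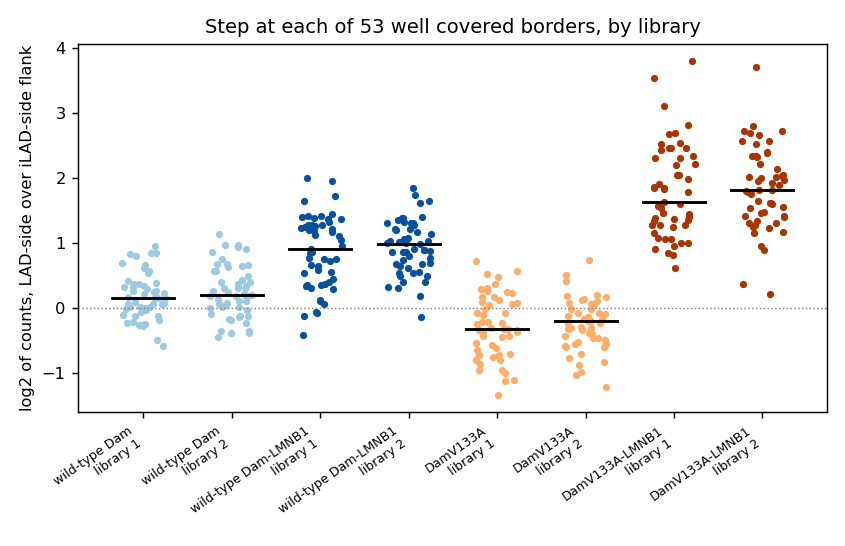
Step at each of the 53 well covered borders in each of the 8 variant libraries (y axis: log2 of counts on the LAD-side flank over counts on the iLAD-side flank; each point is 1 border, each bar the median of 1 library). The medians sit at 1.64 and 1.81 for DamV133A-LMNB1, at 0.91 and 0.99 for wild-type Dam-LMNB1, at 0.16 and 0.21 for wild-type Dam and at -0.32 and -0.20 for DamV133A.

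The step was tested with edgeR (quasi-likelihood, p-values adjusted by Benjamini-Hochberg over 27132 bins). It rose with LMNB1 at 51 of the 53 well covered lead bins in the V133A libraries and fell at 0, against 12.2% of all tested bins called in that direction. The rise had a median of 2.05 (1.14 to 3.44) on the log2 scale, and the median over all tested bins was 0.30. The 2 well covered borders that were not called, chr5:6300001-6400000 and chr13:103000001-103100000, rose by 1.36 ± 0.44 and 1.35 ± 0.43 (SE), with adjusted p of 0.0501 and 0.0516. Of the 25 thinly covered lead bins 21 could be tested and 0 were called by edgeR (3 at an unadjusted p under 0.05). Their median rise was -0.26, and it was positive at 8. DESeq2 called 52 borders in the V133A libraries, and 20.9% of all tested bins in either direction. Without DamV133A library 2 the count fell to 35, the lowest of the 8 counts with 1 library left out, and calls fell to 3.86% of all tested bins.

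With wild-type Dam the borders rose less. The median rise was 0.73 (-0.06 to 1.35) over the well covered borders and above 0 at 52 of 53. By edgeR 0 of 53 were called, as were 0.0% of all tested bins, and 28 had an unadjusted p under 0.05, against 5.37% of all tested bins. DESeq2 called 5 and 0.335% of all tested bins. The difference between the 2 rises had a median of 1.38 and was above 0 at 53 of 53. Over all 27132 tested bins its median in the direction of the bulk difference was 0.24. The rule chose the borders with DamV133A libraries alone, so the choice itself favours a larger rise with V133A. By edgeR 0 well covered lead bins were called for this difference, against 0.0258% of all tested bins, and 38 had an unadjusted p under 0.05, against 10.9%. That count depended on the libraries and the tool: it was 11 and 12 without DamV133A-LMNB1 library 1 or 2 (1.31% and 1.51% of all tested bins were then called, in either direction), 3 without wild-type Dam-LMNB1 library 2 (0.232%), 25 with DESeq2 (3.69%) and 9 with covered fragments in place of counts (0.783%). Without DamV133A-LMNB1 library 2, 1 further lead bin was called against the direction. Between the untethered enzymes, DamV133A had the lower step at most borders, with a median difference from wild-type Dam of -0.47. edgeR called 0 of these, as it called 0.0% of all tested bins, and 16 had an unadjusted p under 0.05 against the direction of the bulk difference, where 3.88% of all tested bins did. DESeq2 called 3 and 0.192% of all tested bins.

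Summed over borders, the counts gave 1 value per library. At the well covered borders the log2 ratio of LAD-side over iLAD-side counts was 0.18 and 0.26 in the wild-type Dam libraries, 0.85 and 0.94 in the wild-type Dam-LMNB1 libraries, -0.28 and -0.23 in the DamV133A libraries and 1.61 and 1.71 in the DamV133A-LMNB1 libraries. The 4 groups did not overlap. The LAD side thus gained 3.77-fold with LMNB1 on DamV133A (log2 1.91 ± 0.08, SD) and 1.59-fold on wild-type Dam (0.67 ± 0.08). In an exact two-sided permutation test 2 libraries against 2 cannot go below p = 0.333, and both contrasts had that value. At these borders, which DamV133A libraries chose, the rise was 2.36-fold larger with the variant (log2 1.24 ± 0.11). For this difference the enzyme labels were permuted within the fusion libraries and within the libraries without LMNB1. In that exact permutation test it had p = 0.0556, the smallest that 36 arrangements allow. The test takes no account of how the borders were chosen. Over all 78 borders the rises were 1.89 and 0.94 and their difference 0.95. A single thinly covered border, chr16:34800001-34900000, held 10.7% to 12.1% of the flank counts in the wild-type Dam libraries. Without it the rises were 1.85 and 0.77 and their difference 1.08. Counting each covered fragment once, the rises over all 78 borders were 1.23 and 0.36, so their size depends on the measure.

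How wide the transition was could be followed at the resolution of DpnI fragments, in windows of 20 kb around the middle of the lead bin. In the V133A libraries the log2 ratio of the fusion over untethered Dam went from -1.24 on the iLAD side to 0.74 on the LAD side, a step of 1.98. In the 2 library pairs the step was 1.92 and 2.03. The averaged ratio passed 50% of the step -0.3 kb from the middle of the lead bin (6.6 and -6.1 kb in the 2 pairs). It went from 10% to 90% within 182 kb (187 and 176 kb in the 2 pairs). This is the width of an average over borders placed to the nearest 100 kb, and single borders differed in shape: from iLAD to LAD, r at chr2:23000001-23100000 climbed through -1.15, -0.76, -0.29, 0.07, 0.64, 0.85 and 1.43 over its 7 bins. With wild-type Dam the same ratio went from -0.46 to 0.30, a step of 0.76. It went from 10% to 90% within 198 kb (197 and 202 kb in the 2 pairs), but passed 50% at -60 and 12 kb. This step was small against its scatter, so its width is uncertain. The averaged profiles in the plot by distance also show each construct on its own, and the V133A ratio lay further below 0 on the iLAD side than above 0 on the LAD side.

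**Figure D2:**
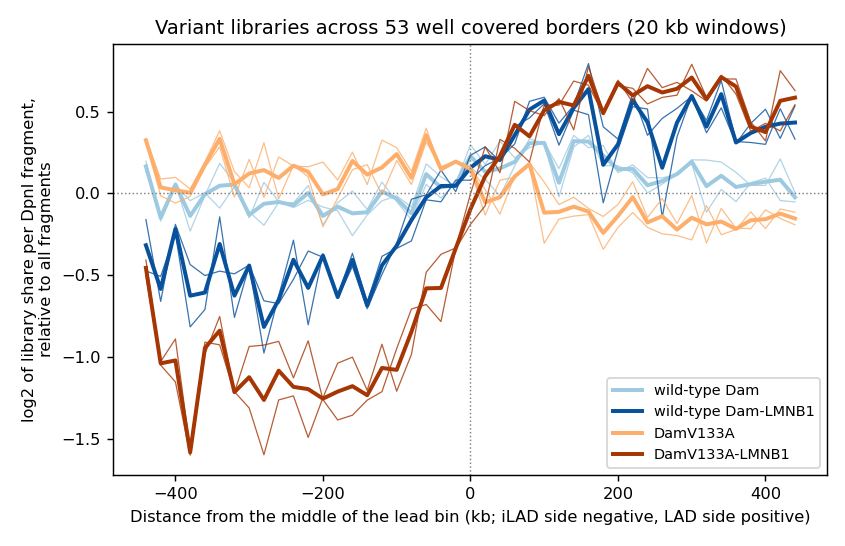
Average signal across the 53 well covered borders in the variant libraries (x axis: distance from the middle of the lead bin in kb, LAD side positive; y axis: log2 of the library's share per DpnI fragment in 20 kb windows, relative to all fragments of the genome). Thick lines are means of 2 libraries and thin lines single libraries: the DamV133A-LMNB1 lines climb across the lead bin, while the wild-type Dam and DamV133A lines stay nearer to 0.

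Named borders show how single places behaved. The steepest rise in the V133A libraries was at chr5:140700001-140800000, where a stretch of housekeeping genes meets the protocadherin alpha cluster, whose members are neuronal cell adhesion proteins with alternative first exons. From the iLAD side to the LAD side, r in the 7 bins was -1.15, -1.11, -1.0, -0.21 in the lead bin, 0.74, 0.34 and 0.40. The step was -0.95 and -0.87 in the DamV133A libraries, 2.47 and 2.57 in the DamV133A-LMNB1 libraries, -0.02 and 0.11 in the wild-type Dam libraries and 1.10 and 0.67 in the wild-type Dam-LMNB1 libraries. Within each enzyme the libraries did not overlap. The V133A rise was 3.44 ± 0.36 (SE; 10.8-fold; edgeR adjusted p = 0.000157) and the wild-type rise 0.84 ± 0.35 (adjusted p = 0.758). The difference of the rises, 2.59 ± 0.50, had an adjusted p of 0.0804. On the iLAD side IK, a splicing factor, stood at 137 ± 1.6 CPM (counts per 1000000; SD, n = 2 untreated libraries) and HARS1, the cytosolic histidyl-tRNA synthetase, at 83.9 ± 0.77 CPM. ZMAT2 in the lead bin stood at 62.7 ± 0.52 CPM, and on the LAD side PCDHA4 was at 1.91 ± 0.19 CPM. All 17 genes of the LAD side here were protocadherins, and 2 of them were at 1 CPM or more, PCDHA4 and PCDHB1.

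At chr11:48100001-48200000 the LAD side held 7 genes, each an olfactory receptor of the OR4 family, and none was above 0.0119 CPM. On the iLAD side stood NUP160, a scaffold protein of the nuclear pore, at 173 ± 4.3 CPM and PTPRJ, a receptor tyrosine phosphatase, at 20.9 ± 0.21 CPM. The step was -1.12 and -1.22 with DamV133A and 1.86 and 2.40 with DamV133A-LMNB1. It was -0.18 and 0.40 with wild-type Dam and 1.44 and 1.31 with wild-type Dam-LMNB1, so neither pair overlapped. The V133A rise was 3.31 ± 0.37 (SE; edgeR adjusted p = 0.000183) and the wild-type rise 1.27 ± 0.36 (adjusted p = 0.633).

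At chr2:215900001-216000000 the LAD side held no protein-coding gene. On the iLAD side XRCC5, the Ku80 subunit of the DNA end-binding complex, stood at 619 ± 10.1 CPM, and MREG, a melanosome regulator, lay in the lead bin at 11.5 ± 0.19 CPM. The step was 0.57 and 0.13 with DamV133A and 3.53 and 3.70 with DamV133A-LMNB1. With wild-type Dam it was 0.70 and 0.38, and with wild-type Dam-LMNB1 1.66 and 1.22. Here all 8 libraries were higher on the LAD side, and the fusions still lay above their controls. The V133A rise was 3.27 ± 0.33 (SE; edgeR adjusted p = 0.000142, the smallest at any border).

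The steepest well covered border by the rule, chr4:70500001-70600000, had r of -0.70, -0.76, -0.05, 0.29, 1.23, 1.59 and 1.68 from iLAD to LAD. Its LAD side and lead bin hold genes of saliva and tooth enamel, such as MUC7, a salivary mucin, at 0.022 ± 0.031 CPM and AMBN, an enamel matrix protein, at 0.54 ± 0.15 CPM. On the iLAD side GRSF1, an RNA-binding protein of mitochondria, stood at 162 ± 0.18 CPM and RUFY3 at 38.3 ± 0.79 CPM. In the variant libraries its step was -0.24 and -0.33 with DamV133A, 1.85 and 2.39 with DamV133A-LMNB1, -0.22 and 0.20 with wild-type Dam and 0.73 and 0.81 with wild-type Dam-LMNB1. The groups of each enzyme did not overlap, and the V133A rise was 2.40 ± 0.28 (SE; edgeR adjusted p = 0.000219).

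The other printed promoters belong to 2 further borders. At chr4:17800001-17900000 the steps were 0.29 and 0.14 with DamV133A, 1.64 and 2.32 with DamV133A-LMNB1, -0.06 and 0.31 with wild-type Dam and 1.73 and 0.75 with wild-type Dam-LMNB1. The fusions lay above their controls, with a V133A rise of 1.76 ± 0.37 (SE; edgeR adjusted p = 0.00592). NCAPG in its lead bin stood at 186 ± 4.4 CPM, and LCORL, whose span runs from the LAD side into the lead bin, at 27.2 ± 0.62 CPM. At chr6:29600001-29700000 the steps were 0.52 and 0.51 with DamV133A and 3.81 and 1.61 with DamV133A-LMNB1. With wild-type Dam they were 0.38 and 0.91, and with wild-type Dam-LMNB1 0.11 and 1.39. The V133A groups did not overlap (rise 2.16 ± 0.57 SE; edgeR adjusted p = 0.0197), while the wild-type groups did (0.10 ± 0.56; adjusted p = 0.988). Its LAD side held 11 genes, 9 of them olfactory receptors, and none of the 10 with an RNA level was at 1 CPM or more. GABBR1 in the lead bin stood at 29.1 ± 1.0 CPM.

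Further named borders show the spread of responses. At chr12:57900001-58000000 the LAD side held no protein-coding gene, and the iLAD side held CDK4, a kinase of the G1 phase, at 270 ± 0.39 CPM and OS9, a lectin of the endoplasmic reticulum, at 153 ± 5.6 CPM. Its step was 0.72 and 0.52 with DamV133A, 2.82 and 2.70 with DamV133A-LMNB1, 0.16 and 0.97 with wild-type Dam and 1.38 and 1.85 with wild-type Dam-LMNB1, so the fusions lay above their controls (V133A rise 2.14 ± 0.35 SE; edgeR adjusted p = 0.0012). At chr5:43600001-43700000 NNT, the mitochondrial transhydrogenase that makes NADPH, lay in the lead bin at 101 ± 1.0 CPM, and HMGCS1, an enzyme of cholesterol synthesis, on the iLAD side at 110 ± 0.67 CPM. The step there was -0.86 and -0.55 with DamV133A, 0.82 and 1.24 with DamV133A-LMNB1, 0.17 and -0.35 with wild-type Dam and 0.29 and 0.30 with wild-type Dam-LMNB1. Neither pair overlapped, and the V133A rise was 1.74 ± 0.32 (SE; edgeR adjusted p = 0.00271).

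At chr14:24400001-24500000 the LAD side held 4 genes for proteases of mast cells and lymphocytes, CMA1, CTSG, GZMH and GZMB, none above 0.0563 CPM. The iLAD side held 27 genes, among them IPO4, a nuclear import receptor, at 201 ± 0.54 CPM. The step was 0.05 and -0.09 with DamV133A and 2.47 and 2.22 with DamV133A-LMNB1, which do not overlap (rise 2.36 ± 0.40 SE; edgeR adjusted p = 0.00151). With wild-type Dam it was 0.85 and 0.94, and with wild-type Dam-LMNB1 0.34 and 1.36, which overlap (-0.06 ± 0.40; adjusted p = 0.992, the lowest rise of the 53). At chr12:98300001-98400000 the iLAD side held TMPO, whose products include the lamina-associated LAP2 proteins, at 386 ± 3.8 CPM, and the LAD side held no protein-coding gene. The step was -0.72 and -0.99 with DamV133A and 1.00 and 1.40 with DamV133A-LMNB1 (rise 2.05 ± 0.34 SE; edgeR adjusted p = 0.00141).

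The lowest V133A rise, 1.14 ± 0.35 (SE; edgeR adjusted p = 0.041), was at chr4:107700001-107800000, where the LAD side held PAPSS1, which makes the sulfate donor PAPS, at 57.5 ± 1.9 CPM. The step was 0.37 and -0.07 with DamV133A and 1.36 and 1.24 with DamV133A-LMNB1, which do not overlap. It was 0.26 and 0.24 with wild-type Dam and -0.41 and 1.01 with wild-type Dam-LMNB1, which overlap. At the other end of the same LAD, chr4:103100001-103200000, CENPE, a motor protein of the kinetochore, lay in the lead bin at 111 ± 5.3 CPM. The iLAD side held UBE2D3, a ubiquitin-conjugating enzyme, at 313 ± 2.8 CPM. The step was -0.72 and -0.43 with DamV133A, 1.08 and 0.96 with DamV133A-LMNB1, -0.22 and -0.35 with wild-type Dam and 1.39 and 0.69 with wild-type Dam-LMNB1. Here the wild-type rise, 1.33 ± 0.26, was close to the V133A rise, 1.6 ± 0.25.

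Whether single cells show the same borders was asked next. For each cell, the fragments expected in a flank were set from the summed bulk DamV133A libraries and the cell's total, so that a cell that follows untethered Dam has a border contrast of 0. The rule used those bulk libraries as well, so the contrast shares values with the rule and carries no test. Cells held 9526 to 348793 fragments, with medians of 94331 in the DamV133A-LMNB1 cells, 92707 in the DamV133A cells and 110236 in the batch 2 cells. Over the 53 well covered borders the log2 contrast of LAD side over iLAD side was -1.11, -0.38 and -0.20 in the 3 DamV133A cells. In the 15 DamV133A-LMNB1 cells it ranged from 0.27 to 2.86 with a median of 2.22, or 4.64-fold. In the 36 DamV133A-tdTomato-LMNB1 cells it ranged from 0.20 to 2.66 with a median of 1.48, or 2.79-fold. All 15 and all 36 fusion cells lay above the highest DamV133A cell, and no DamV133A cell was processed in batch 2, so construct and batch cannot be told apart there. Over all 78 borders the medians were 1.96 and 1.15, and they were 1.67 and 0.86 with expected values from the DamV133A libraries of the variant comparison, which the rule did not use.

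**Figure D3:**
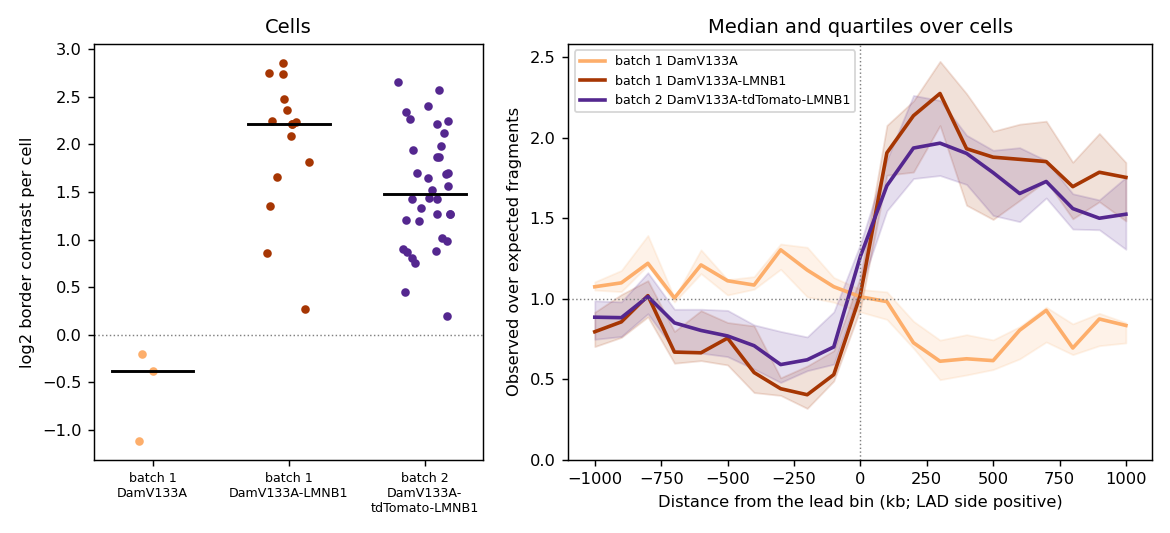
Borders in single cells. Left, the log2 border contrast of each cell over the 53 well covered borders (points are cells, bars are medians at -0.38, 2.22 and 1.48); right, observed over expected fragments by distance from the lead bin in kb (lines are medians over cells and bands the quartiles), where both fusion groups lie below 1 at -200 kb and above 1 at 200 kb.

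By distance, the median batch 1 fusion cell had 0.40 times the expected fragments 200 kb out on the iLAD side, 1.02 times in the lead bin and 2.28 times 300 kb into the LAD. At 1000 kb on the LAD side it was 1.75. The batch 2 median went from 0.62 at -200 kb to 1.97 at 300 kb. In the DamV133A cells the order was the opposite, 1.30 at -300 kb and 0.61 at 300 kb.

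Each border was also read within each cell, calling a flank contacted when it held at least the expected number of fragments. In the median batch 1 fusion cell the LAD side alone was contacted at 54.7% of the 53 borders, both sides at 9.43%, neither at 24.5% and the iLAD side alone at 1.89%. In the median batch 2 cell these shares were 61.3%, 18.9%, 15.1% and 1.89%. In DamV133A cells, whose Dam is untethered, the same cut does not measure contact with the lamina. In the median DamV133A cell the LAD side alone met it at 9.43% and the iLAD side alone at 35.8%. After thinning every cell to 10000 fragments, which left out 1 cell, the LAD side alone met the cut at 54.7%, 54.7% and 17.0% in the same 3 groups. The cell left out, a batch 1 fusion cell of 9526 fragments, held 94 on all 53 LAD sides together and 34 on the iLAD sides. At such depth a call in 1 flank rests on few fragments. With the cut set at 2 times the expected fragments, the LAD side alone met it at 43.4%, 39.6% and 0.0%.

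**Figure D4:**
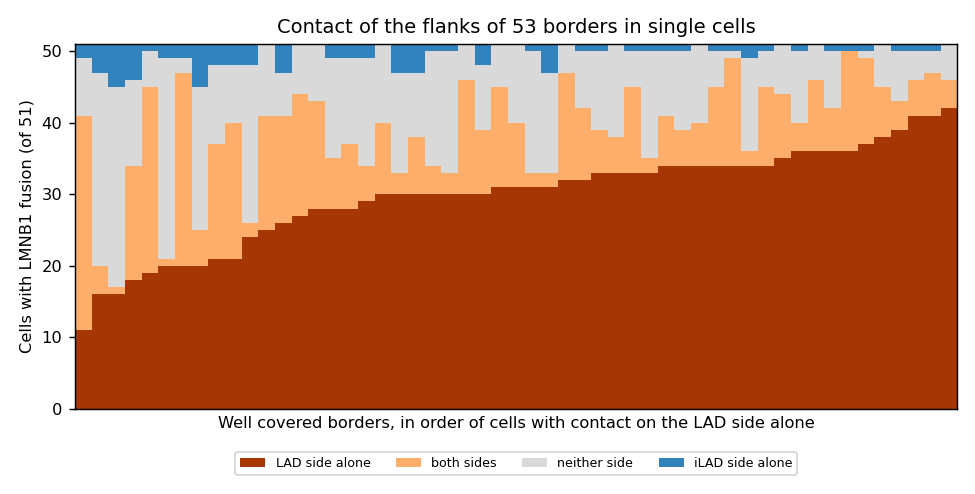
Contact of the 2 flanks at each of the 53 well covered borders over the 51 fusion cells (each column is 1 border, the y axis counts cells). Columns are ordered by the number of cells with contact on the LAD side alone, which runs from 11 to 42.

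Every well covered border was higher on the LAD side in 33 to 50 of the 51 fusion cells, with a median of 44. In the 3 DamV133A cells 20 borders were higher on the LAD side in 0 cells and 1 was in all 3. The borders differed in how often the LAD side alone was contacted, from 11 to 42 of 51 cells with a median of 31. The OR4 border on chromosome 11 was at the top with 42 cells, 12 of 15 in batch 1 and 30 of 36 in batch 2, and the MUC7 border on chromosome 4 and chr5:32600001-32700000 followed with 41 each. The fewest, 11, were at chr2:23000001-23100000, and the GABBR1 border on chromosome 6 had 16, with 8 of 15 in batch 1 and 8 of 36 in batch 2. At the XRCC5 border, among the steepest in bulk, the LAD side alone was contacted in 2 of 15 and 18 of 36 cells, and neither side in 12 and 16. With all fragments of a group pooled, the log2 contrast of a border ranged from 0.27 to 3.00 in batch 1 and from 0.48 to 3.10 in batch 2.

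Genes changed across the same borders. At the 53 well covered borders, protein-coding genes numbered 6.29 per Mb on the LAD side, 8.49 in lead bins and 15.5 on the iLAD side, against 7.00 over all bins with well covered windows. The iLAD side held more genes at 43 borders and fewer at 6. In the untreated libraries 10 of 96 LAD-side genes with an RNA level (10.4%) were at 1 CPM or more, as were 25 of 42 lead-bin genes (59.5%) and 187 of 238 iLAD-side genes (78.6%). Both untreated libraries gave the same counts, and over the other 6 libraries the shares ranged from 11.5% to 13.5%, 59.5% to 61.9% and 78.6% to 79.8%. Over all bins with well covered windows the share was 68.7%. No expressed gene lay on the LAD side at 45 of 53 borders, and summed CPM was higher on the iLAD side at 51. Over all 78 borders the shares were 11.9% on the LAD side and 78.9% on the iLAD side.

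The change in expressed genes was abrupt. There were 12.6 expressed genes per Mb 200 kb out on the iLAD side, 4.72 in lead bins and 0.75 in the first 100 kb of the LAD side. The density of DpnI fragments, which sets how many sites a bin offers to Dam, changed too: the median was 263 fragments per bin on the iLAD side, 246 in lead bins and 235 on the LAD side, and it was higher on the iLAD side at 50 of 53 borders. Its part in the steps was not tested. The sites are the same for all the libraries.

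**Figure D5:**
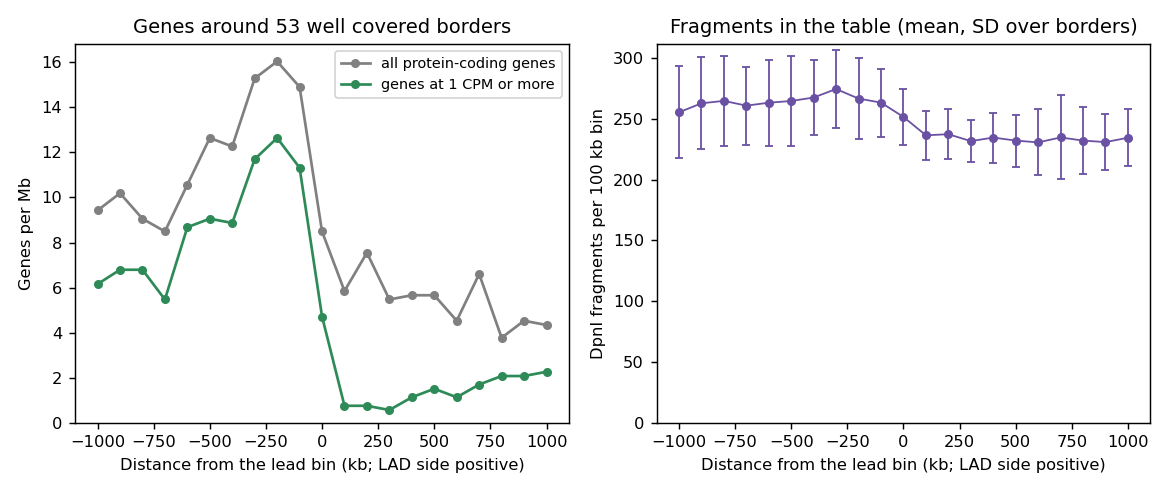
Genes and DpnI fragments around the 53 well covered borders, by distance from the lead bin in kb (LAD side positive). Left, all protein-coding genes and those at 1 CPM or more in untreated cells, per Mb; right, fragments per 100 kb bin with the SD over borders as bars. Expressed genes fall from 12.6 per Mb at -200 kb to 0.75 at 100 kb.

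Few lead bins were crossed by a gene. A protein-coding gene spanned the whole lead bin at 3 of 53 borders (5.66%), against 18.8% of all bins with well covered windows. They were STXBP5L, a syntaxin-binding protein, at 7.45 ± 0.13 CPM, CD109, a GPI-anchored surface protein, at 17.1 ± 0.84 CPM, and LDAH, a hydrolase of lipid droplets, at 9.24 ± 0.33 CPM. CD109 is transcribed toward the LAD and the other two away from it. Of the expressed lead-bin genes with a known strand 16 were transcribed toward the LAD and 8 away from it, and of all lead-bin genes 22 and 18. Expressed iLAD-side genes had 69 toward and 95 away, and expressed LAD-side genes 5 and 6.

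Of the gene families, olfactory receptors and clustered protocadherins had the largest shares in the windows among those with more than 1 member there. Olfactory receptors, the odorant receptors of the nose, had 44 of 391 placed genes in the windows of these borders: 40 on the LAD side, 3 in lead bins and 1 on the iLAD side, all within 17 bins. Of 53 clustered protocadherins 17 lay in the windows, all on the LAD side of 1 border. Of all 19081 placed genes 2.03% lay in the windows, 243 on the iLAD side, 100 on the LAD side and 45 in lead bins. Other families had smaller shares. Zinc finger genes named ZNF had 4 on the iLAD side and 1 on the LAD side, or 1.00% of them. Solute carriers had 5 on the iLAD side and 1 in a lead bin, or 1.80%. The ribosomal protein genes RPS7 and RPS14 (2 of 79, 2.53%) lay on the iLAD side. So did the proteasome activator genes PSME1 and PSME2 (2 of 47 proteasome genes, 4.26%), in 1 bin. Of 23 cadherins 1 lay on the LAD side (4.35%). Members of a family lie in clusters that 1 border can hold whole, so they are not independent. Expression on the LAD side was not absent throughout: TNIP1, an inhibitor of NF-kappa-B signalling, stood at 89.5 ± 1.0 CPM, PAPSS1 at 57.5 ± 1.9 CPM and GPX3, a secreted glutathione peroxidase, at 31.3 ± 0.30 CPM. DIP2A at 78.0 ± 3.2 CPM and PRMT2, an arginine methyltransferase, at 73.0 ± 0.78 CPM did so at a thinly covered border.

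The RNA libraries asked whether the fusion changed genes near the borders. LMNB1 itself stood at 258 and 262 CPM with DamV133A and at 2528 and 1981 CPM with DamV133A-LMNB1, and did not overlap between them (log2 3.19 ± 0.09 SE; edgeR adjusted p = 1.11e-05). Untreated cells had 744 and 746 CPM. VIM, NEFM, NEFL and LIN28B, which HEK293T cells are known to express, stood at 77.0 to 791 CPM over the 8 libraries. PTPRC and HBB, markers of blood cells, and ALB, of liver, were at 0.775 CPM or less, while of the fibroblast collagens COL1A2 was at 0.534 CPM or less and COL1A1 at 24.3 to 28.9 CPM. Of 368 border genes 265 were tested. edgeR called 37 higher and 19 lower with DamV133A-LMNB1 than with DamV133A, or 14.0% and 7.17%, against 12.7% and 7.55% of all 17740 genes tested. At an unadjusted p under 0.05 there were 114, against 39.2% of all genes. The median log2 change was -0.04 over the border genes and -0.02 over all genes. These shares and medians lie near those of all genes. Without DamV133A RNA library 1 or without library 2, the median log2 change was -0.03 and -0.02 over the border genes. Over all genes it was -0.01 in both cases. Calls of border genes depended on both DamV133A RNA libraries being in the fit, as did nearly all calls over all genes. In bulk RNA a change in how many cells took up the plasmid and a change within each cell cannot be told apart.

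By side, 1 gene was called higher and 1 lower of 23 tested on the LAD side, 1 and 2 of 28 in lead bins, and 35 and 16 of 214 on the iLAD side. On the LAD side GPX3 stood at 38.9 and 38.2 CPM with DamV133A and at 41.6 and 44.2 CPM with the fusion, which do not overlap (log2 0.24 ± 0.07 SE; edgeR adjusted p = 0.0427). PCDHA4 stood at 2.93 and 2.62 CPM against 1.52 and 1.16 CPM, lower in both (-0.96 ± 0.23; adjusted p = 0.0309). The protocadherin alpha genes share their last exons, so the split of reads among them is uncertain. In lead bins CENPE stood at 166 and 172 CPM against 123 and 83.7 CPM (-0.64 ± 0.14; adjusted p = 0.0242), NCAPG fell by 0.20 ± 0.06 (adjusted p = 0.0453) and ZMAT2 rose by 0.30 ± 0.07 (adjusted p = 0.0247).

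On the iLAD side the smallest adjusted p in each direction belonged to genes of several borders. CD63, a tetraspanin of late endosomes, stood at 119 and 120 CPM with DamV133A and at 161 and 191 CPM with the fusion (log2 0.64 ± 0.09 SE; edgeR adjusted p = 0.018). Its neighbour BLOC1S1, a subunit of a complex for lysosome-related organelles, rose by 0.76 ± 0.12 and ITM2C, a transmembrane protein of the secretory pathway, by 0.46 ± 0.06. ESD, an esterase, rose by 0.35 ± 0.06. LTB4R2 and LTB4R, overlapping genes for leukotriene B4 receptors, fell by 0.80 ± 0.10 and 0.74 ± 0.11, and whether the counting used strand was not given in the sources used here. At a thinly covered border C21orf58 and MCM3AP, an mRNA export factor, both fell by 0.29 ± 0.06.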

How the data were processed

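DamID and RNA sequencing of HEK293T cells were analysed. Per 100 kb bin, the authors deposited unique fragment counts for cells and coverage counts for bulk libraries, whole-number counts per DpnI fragment for the Dam variants (7180359 fragments), and estimated counts per gene for RNA, rounded here. The authors' deposited log2 fold change per bin was not used. Build hg38, Salmon, limma, DESeq2, bedtools 2.28, SAMtools 1.9, BWA 0.7.15-r1140 and Trimmomatic 0.39 stand in the submitters' processing notes, with no role for each. What 1 unit of bulk coverage is, and the aligner settings, are not given in the sources used here.

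Variant fragments were summed to the bins. The counts of the left and right flank of each bin were fitted with edgeR 4.0.16 (R 4.3.3; filterByExpr, library totals as offsets, library as a block, side by construct, glmQLFTest, Benjamini-Hochberg adjusted p under 0.05) over all 8 libraries. RNA was fitted over 8 libraries with TMM scaling, and border genes were those with a single RNA identifier. DESeq2 1.42.0 served as an alternative, and the rest used matplotlib 3.10.9, SciPy 1.17.1, pandas 2.3.3, NumPy 2.4.6 and Python 3.11.15. The fits were tested on simulated counts. CPM are scaled to library totals. Genes were placed by the middle of their RefSeq span (GRCh38.p14); 95.1% of 19126 had an RNA level, and 4025 had no promoter entry by which to check their place.

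Members, gene families and tests were chosen with earlier results of these data known. Named borders were those with the largest differences, the smallest adjusted p, the shortest and longest LADs and the neighbours of the threshold; the steepest well covered borders and the LAD-side promoters were added after their values were seen. Named genes were those of highest untreated CPM in each flank and lead bin of these, on the LAD side of all borders, the longest across a lead bin, the smallest adjusted p in RNA, and LMNB1.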

Additional observations from a re-analysis of the deposited data

Results flagged for a closer look

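At 1 member bin, chr8:122500001-122600000, the rise of the step with LMNB1 differed between the V133A and wild-type libraries in edgeR's test of that difference over all 27132 bins, and this is why it is listed. It lies next to the lead bin chr8:122600001-122700000, itself not called for the difference (1.76 ± 0.56 SE, adjusted p = 0.206). The steps of the LAD side over the iLAD side were 1.09 and 0.51 with wild-type Dam, 0.43 and 1.16 with wild-type Dam-LMNB1, 0.33 and 0.23 with DamV133A and 3.84 and 3.35 with DamV133A-LMNB1. The wild-type groups overlapped and the V133A groups did not. The rise was 3.32 ± 0.36 (SE; adjusted p = 0.000178) with V133A and -0.02 ± 0.35 (adjusted p = 0.998) with wild-type Dam, and their difference was 3.34 ± 0.50 (edgeR adjusted p = 0.0261). The protein-coding gene in its window is ZHX2, a zinc finger and homeobox repressor on the iLAD side, at 23.9 ± 1.1 CPM (SD, n = 2) in untreated cells.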

How the results depend on the processing

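With DESeq2 the calls were 5 borders for wild-type Dam and 25 for the difference between enzymes (0.335% and 3.69% of all tested bins). For the latter, covered fragments gave 9 (0.783%). Covered fragments also gave rises of 1.23 with V133A and 0.36 with wild type, and the median over borders 0.75 for wild type and 1.07 for the difference. At a threshold of 2, where 9 of 10 borders are thinly covered, 1 border was called in the V133A libraries, the wild-type rise was 1.18, the difference 0.78 and the single-cell contrasts 0.82 and 0.0649. A threshold lower by 0.25, chosen after seeing the data, gave 136 called borders of 185, against 12.2% of all tested bins. Its rises were 1.65 and 0.69. The well covered borders gave 0.67 for wild type and 1.24 for the difference in sums, and 0.76 and 1.22 as medians. The gap between the sides in the share of expressed genes was 67.0 percentage points, and 62.3 at 0.1 CPM, 67.3 with genes placed by span start, 60.0 at a threshold of 2, 68.2 over well covered borders and 59.5 at the lower threshold. Border genes called in RNA, 56 of 265 tested, were 85 of 343 with no low-count filter. Of all genes tested, 3598 of 17740 were called in the main fit and 5437 of 30422 with no filter. Leaving out 1 library at a time gave 35 to 53 called borders with V133A, 0 with wild type and 0 to 12 for the difference, rises of 1.82 to 1.96 and 0.90 to 0.97 with a difference of 0.88 to 1.02, and 0 to 151 border genes in RNA. A lone library left in a group is assumed to vary like those of the other groups. No count of calls or summed value changed direction under the alternatives run, but without DamV133A-LMNB1 library 2, 1 lead bin was called against the direction with V133A and 1 for the difference. Of the values, 60 planned and 13 added values kept their direction and side of the threshold or stayed within their spread.

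Replicate numbers only name the samples: deviations of same-numbered libraries correlated at -0.02 to 0.03 over 22579 bins in DamID and at -0.10 in RNA. With the replicate block 52 borders were called in the V133A libraries, 0 in the wild-type ones and 1 for the difference. Of all tested bins 13.0%, 0.0% and 0.0479% were then called, in either direction. In RNA the block gave 33 of 265 border genes, against 2077 of all 17740 genes tested. Thinly covered windows hold a median lowest count of 18 and few DpnI fragments, so their steps carry little weight.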
